A study of Arabidopsis thaliana with 12 samples.

Results

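Serine/arginine-rich (SR) splicing factors of Arabidopsis thaliana were followed at the level of whole genes, as 10 loci taken by their AGI locus numbers from a deposited table of 32833 genes. They were SR30 (AT1G09140), SR34 (AT1G02840), SR34a (AT3G49430) and SR34b (AT4G02430) of the SR subfamily. RS31 (AT3G61860), RS31A (AT2G46610), RS40 (AT4G25500) and RS41 (AT5G52040) made up the RS subfamily, and SR45 (AT1G16610) and SR45a (AT1G07350) an SR-like pair. The family was chosen because RS31A had been seen at a lower level in mutant than in wild-type seedlings under heat. That comparison is therefore given below as values, with no test. The study asked how the HOP family, co-chaperones that link HSP70 to HSP90, affects the heat response of seedlings. RNA was sequenced from 12 libraries of 7-day-old seedlings in 4 groups of 3. The mutant, called hop here, carries mutations in HOP1, HOP2 and HOP3, and the labels name no allele and no complemented line. The groups were hop seedlings that spent their last 3 h at 38 °C (hop heat), hop seedlings under control conditions (hop control), wild-type Col-0 seedlings given the same heat (wt heat) and Col-0 seedlings under control conditions (wt control). Nothing in the labels says that replicates were separate cultures or how many seedlings each held, so the p-values measure only the spread between these libraries, which may be technical.

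SR proteins carry an RNA recognition motif and a stretch rich in arginine and serine, bind exonic and intronic sequences of pre-mRNA, and help recruit the U1 small nuclear ribonucleoprotein and the U2 auxiliary factor to splice sites. Their phosphorylation by dedicated kinases sets where they sit in the nucleus and how they act. SR genes of plants are themselves spliced in many ways in response to heat and light, and many of the resulting transcripts are degraded or kept in the nucleus. The RefSeq annotation (TAIR10.1) lists from 1 transcript for RS31 to 8 for RS40. The deposited counts are 1 number per gene and do not tell these transcripts apart, so a level below is the sum over productive and unproductive forms.

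The sequence upstream of 2 members is shown because they had the strongest heat response, and that of SR45 because it held a motif searched for. Heat shock factors bind inverted repeats of GAA, and the 250 bases before each annotated gene start of TAIR10.1 were searched for the letters GAANNTTC and TTCNNGAA, each of which reads the same on both strands. These letters were in 4432 of 27443 promoters (16.1%) and in 2 of the 10 members, SR45 and RS41, each 127 bases before the start. The RS41 motif lies outside the 75 bases next to its start that overlap no other annotated gene. No other annotated gene overlaps the SR45 window. The motif was in neither the SR45a nor the SR30 window. For SR45a and SR30 only the stretch next to the start that overlaps no other annotated gene is printed, 129 and 53 bases long, and for SR45 the whole window. Capitals mark the motif, and each sequence runs 5′ to 3′ toward the gene start.
SR45a, chr1:2260188-2260316, minus strand: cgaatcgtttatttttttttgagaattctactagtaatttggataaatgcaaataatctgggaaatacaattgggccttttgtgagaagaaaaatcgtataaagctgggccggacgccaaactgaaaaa
SR30, chr1:2945977-2946029, minus strand: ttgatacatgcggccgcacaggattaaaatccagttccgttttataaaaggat
SR45, chr1:5678874-5679123, minus strand: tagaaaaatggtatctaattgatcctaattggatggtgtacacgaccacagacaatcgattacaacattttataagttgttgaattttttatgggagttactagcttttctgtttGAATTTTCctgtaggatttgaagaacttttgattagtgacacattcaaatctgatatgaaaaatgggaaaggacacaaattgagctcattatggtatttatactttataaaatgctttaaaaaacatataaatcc

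The libraries held 26.1 to 38.7 M counted fragments. The normalized counts summed to 36.6 to 46.6 M in the 6 heat libraries and to 20.8 to 24.5 M in the 6 control libraries, so the size factors chosen by the authors differ by treatment. Setting the recovered fragments to library size alone moved the median heat response of all genes by -0.91 (hop) and -0.86 (wt) on the log2 scale. Each heat response below was therefore also read under that scaling, and so were the differences between genotypes where their direction turned. As a check of the labels, HOP2 averaged 7.07 ± 0.664 normalized counts in hop control and 556 ± 76.5 in wt control libraries, and HOP3 averaged 4.55 ± 4.70 in hop control and 80.7 ± 6.92 in wt control libraries (SD, n = 3 each). HOP1 averaged 596 ± 69.6 in hop control and 650 ± 98.6 in wt control libraries (log2 difference -0.12, adjusted p = 0.917), so its level does not mark the mutant. With heat HOP1 averaged 2068 ± 359 in hop and 1216 ± 197 in wt libraries, and HOP2 averaged 4718 ± 587 in hop and 8002 ± 657 in wt libraries, 59.0% of the wt level. HOP3 averaged 1272 ± 66.8 in hop heat and 111381 ± 19304 in wt heat libraries. HOP1 thus had no called difference at control, and under heat it averaged higher in hop, against the label. HOP2 and HOP3 averaged lower in hop in both conditions, HOP2 under heat only to 59.0% of the wt level. The word "hop" means the libraries labelled so throughout, also where a direction between genotypes is given. All 4 green tissue markers and all 4 root markers were above 0 in every library. The green tissue sum was 1.61 to 2.08 M normalized counts in hop heat, 1.21 to 1.44 in hop control, 1.24 to 1.67 in wt heat and 1.09 to 1.27 in wt control libraries, and the root sum, mostly IRT1, ran from 1263 to 2270 over the 12 libraries. Single root markers moved in opposite ways: PRP3 averaged 28.2 ± 5.85 in hop heat, 292 ± 73.7 in hop control, 61.0 ± 28.9 in wt heat and 299 ± 19.8 in wt control libraries, and EXPA7 averaged 269 ± 33.0 in hop heat, 100.1 ± 27.3 in hop control, 381 ± 34.3 in wt heat and 88.1 ± 18.6 in wt control libraries. The sum of 3 seed storage genes ran from 87.5 to 305 in hop heat, 24.0 to 409 in hop control, 29.1 to 561 in wt heat and 7.88 to 126 in wt control libraries. Their part in the results was not tested. In RNA from whole seedlings, fewer cells of a type and less RNA per cell cannot be told apart.

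Heat raised SR45a and SR30 in both genotypes, with the largest fold changes of the 10 genes. SR45a is a relative of the animal splicing regulator Transformer-2, and SR30 is an SR subfamily member known to regulate splicing of its own transcript and of SR34. SR45a had 46919, 41128 and 39670 normalized counts in the hop heat libraries and 295, 289 and 296 in the hop control libraries. In wild type it had 44405, 49631 and 37766 normalized counts with heat and 267, 284 and 302 without. The heat and control libraries of SR45a were thus far apart, and within each treatment the genotypes overlapped. Its log2 fold change was 7.17 (SE 0.10, 144-fold, adjusted p = 7.64e-17) in hop and 7.26 (SE 0.10, 153-fold, adjusted p = 7.53e-17) in wt, the 88th and 82nd highest of the 23827 genes tested.

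SR30 had 17321, 14998 and 15808 normalized counts in hop heat and 910, 854 and 939 in hop control libraries. In wt heat libraries SR30 had 16320, 17690 and 14884 normalized counts, and in wt control libraries 966, 1021 and 957. Again every heat library stood far above every control library. The log2 fold change of SR30 was 4.15 (SE 0.09, 17.8-fold, adjusted p = 5.97e-15) in hop and 4.05 (SE 0.09, 16.6-fold, adjusted p = 8.58e-15) in wt. By library size alone both genes still rose, SR45a by 6.25 (hop) and 6.37 (wt) and SR30 by 3.23 (hop) and 3.16 (wt) on the log2 scale.

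**Figure D1:**
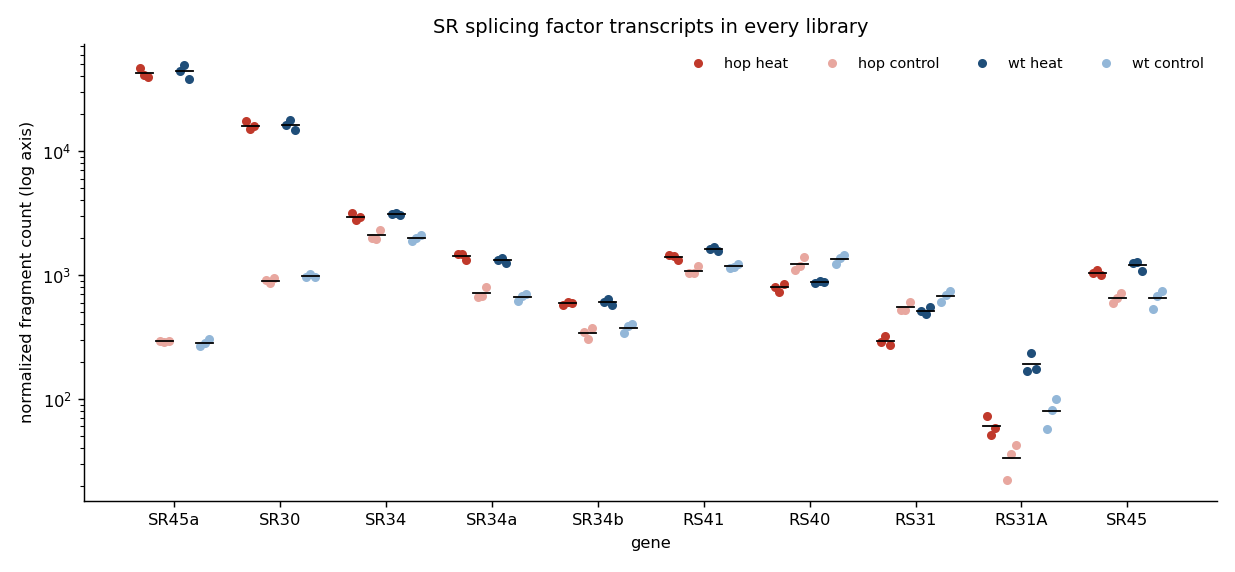
Normalized counts of each of the 10 SR genes (log axis) in the 12 libraries, grouped as hop heat, hop control, wt heat and wt control, with each library as a point. SR45a and SR30 stand apart by treatment in both genotypes, while RS31A is the member with the fewest counts.

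All 10 members passed the filter on low values and all 10 changed with heat in each genotype under the authors' scaling, 8 higher and 2 lower. The counts in this paragraph include RS31A, whose heat libraries are those in which it was first noted. They are thus not fully independent of the choice of the family. Of all genes tested, 33.3% were called higher and 35.2% lower in hop (68.5% in either direction), and 33.2% higher and 35.8% lower in wt (69% in either direction). The heat and control libraries of all 10 members did not overlap in either genotype, 8 lying higher and 2 lower with heat. Among all genes 34.1% lay higher and 36.4% lower in hop without overlap, and 34.8% higher and 37.6% lower in wt. The median log2 response of the members was 0.73 in hop and 0.79 in wt, against -0.06 in hop and -0.08 in wt for all genes. By library size alone 2 members were called higher and 4 lower in hop (13.1% and 61.8% of all genes, 74.9% in either direction), and 2 higher and 3 lower in wt (13.3% and 60.9%, 74.2% in either direction). The members' median less that of all genes was then 0.77 in hop and 0.83 in wt.

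The other members of the SR subfamily rose less, and their rise depends on the scaling. SR34, a close relative of the human splicing factor SRSF1, had 3147, 2774 and 2940 normalized counts in hop heat and 1996, 1957 and 2311 in hop control libraries. SR34 had 3107, 3172 and 3021 normalized counts in wt heat and 1878, 1996 and 2113 in wt control libraries. Every heat library was above every control library on this scale. The log2 fold change was 0.50 in hop (SE 0.09, adjusted p = 1.37e-04) and 0.64 in wt (SE 0.09, adjusted p = 1.33e-05), but by library size alone it was -0.43 in hop, where it was called lower with edgeR (adjusted p = 0.00602), and -0.25 in wt (adjusted p = 0.0825).

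SR34a had 1481, 1470 and 1326 normalized counts in hop heat and 667, 680 and 796 in hop control libraries. In wild type SR34a had 1328, 1378 and 1244 normalized counts with heat and 619, 682 and 707 without. The genotypes overlapped within each treatment, and the treatments did not overlap. Its log2 fold change was 0.999 in hop (adjusted p = 1.60e-07) and 0.98 in wt (adjusted p = 2.09e-07), and by library size alone it was 0.06 in hop and 0.09 in wt and not called. SR34b, reported to act on splicing of the iron transporter gene IRT1, had 575, 608 and 592 normalized counts in hop heat and 344, 305 and 373 in hop control libraries. In wt heat libraries SR34b had 603, 639 and 577 normalized counts, and in wt control libraries 342, 390 and 399. The lowest heat library lay well above the highest control library. The log2 fold change of SR34b was 0.80 in hop (adjusted p = 3.59e-06) and 0.69 in wt (adjusted p = 1.79e-05), and by library size alone -0.13 in hop and -0.21 in wt, not called.

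The RS subfamily, found in plants, split: under the authors' scaling RS31 and RS40 fell and RS41 and RS31A rose. RS31, whose splicing is known to respond to light through a signal from the chloroplast, had 289, 321 and 271 normalized counts in hop heat and 521, 521 and 605 in hop control libraries. RS31 had 517, 483 and 547 normalized counts in wt heat and 604, 688 and 739 in wt control libraries. Heat libraries lay below control libraries in both genotypes, and the hop heat libraries lay lowest. RS31 fell by 0.90 in hop (SE 0.11, adjusted p = 2.07e-06) and by 0.39 in wt (SE 0.11, adjusted p = 0.00447) on the log2 scale. By library size alone its log2 fold change was -1.83 in hop and -1.27 in wt.

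RS40 and RS41 are close relatives that have been linked to salt stress and to microRNA processing. RS40 had 806, 734 and 849 normalized counts in hop heat and 1093, 1182 and 1393 in hop control libraries. RS40 had 864, 897 and 879 normalized counts in wt heat and 1221, 1371 and 1457 in wt control libraries. Its heat libraries were the lower ones in both genotypes, with a log2 fold change of -0.61 in hop (adjusted p = 6.98e-05) and -0.61 in wt (adjusted p = 7.00e-05), and by library size alone of -1.54 in hop and -1.50 in wt. RS41 had 1440, 1429 and 1333 normalized counts in hop heat and 1033, 1040 and 1177 in hop control libraries. RS41 had 1635, 1694 and 1560 normalized counts in wt heat and 1142, 1165 and 1237 in wt control libraries. The heat libraries of RS41 were the higher ones, yet its direction turned with the scaling: the log2 fold change was 0.37 in hop (adjusted p = 9.56e-04) and 0.46 in wt (adjusted p = 1.41e-04), and by library size alone -0.56 in hop (edgeR, adjusted p = 3.63e-04) and -0.42 in wt (edgeR, adjusted p = 0.00351).

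RS31A, the paralog of RS31, had the lowest level per kilobase of exon in every group. It had 72.9, 50.8 and 58.8 normalized counts in hop heat and 22.2, 36.1 and 42.2 in hop control libraries. In wt heat libraries RS31A had 169, 237 and 174 normalized counts, and in wt control libraries 57.5, 81.1 and 100.2. These values rest on 35 to 57 fragments per library in hop heat, 26 to 65 in hop control, 128 to 143 in wt heat and 63 to 140 in wt control. Heat libraries lay above control libraries within each genotype, with a log2 fold change of 0.87 in hop (SE 0.25, adjusted p = 0.00660) and 1.29 in wt (SE 0.25, adjusted p = 3.38e-04). By library size alone the log2 fold change of RS31A was -0.086 in hop and 0.36 in wt, and neither was called. These responses use the heat libraries in which RS31A was first noted. Annotated exons of RS31A overlap 2 genes on the other strand, a long non-coding RNA, AT2G09740, which had 0 to 1.03 normalized counts, and AT2G46600, by 35 bases. RS40 and RS41 overlap AT4G25510, listed at 0 in all 12 libraries, and AT5G52045, at 0 to 2.64 normalized counts, on the other strand. How fragments were assigned where genes overlap or where paralogs are alike is not given in the sources used here.

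SR45, an SR-like protein that binds U1-70K and U2AF35 and is needed for normal flower and root growth, had 1028, 1088 and 1000 normalized counts in hop heat and 595, 654 and 720 in hop control libraries. SR45 had 1249, 1277 and 1082 normalized counts in wt heat and 531, 683 and 737 in wt control libraries. Every heat library stood above every control library on this scale. Its log2 fold change was 0.66 in hop (adjusted p = 1.36e-04) and 0.90 in wt (adjusted p = 6.94e-06), and by library size alone -0.27 in hop and -0.013 in wt, not called.

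**Figure D2:**
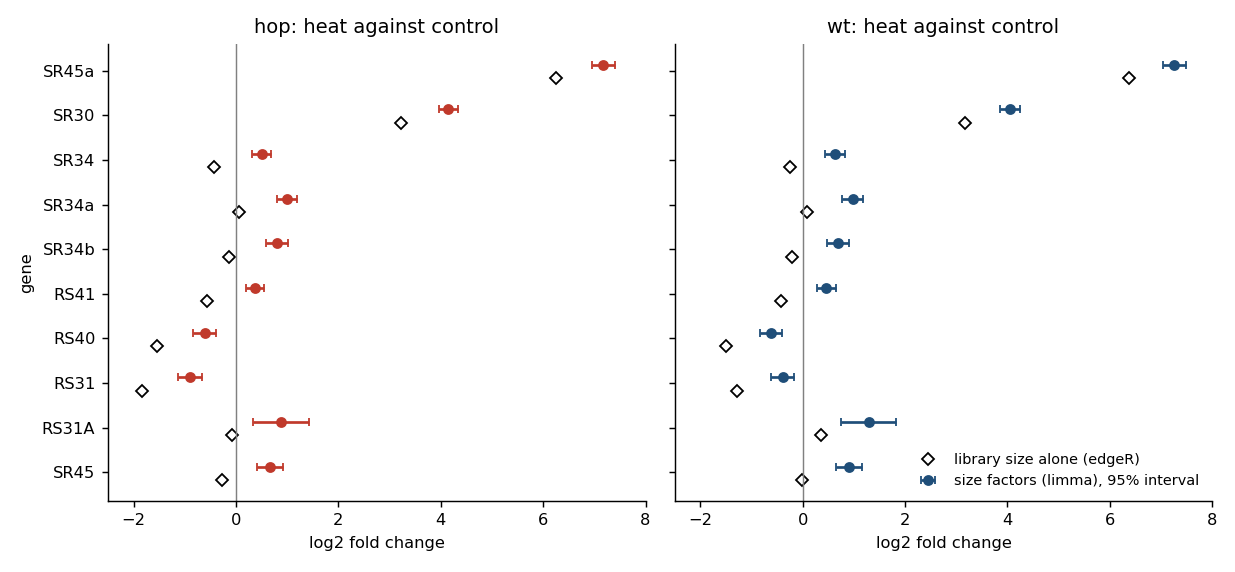
Log2 fold change, heat over control, of each SR gene in hop (left) and wt (right): filled points give the limma estimate under the authors' scaling with its 95% interval, and open diamonds the edgeR estimate by library size alone. SR45a and SR30 lie above 0 and RS31 and RS40 below 0 under both scalings in both genotypes, whereas SR34, SR34b, RS41 and SR45 in both genotypes, and RS31A in hop, change sign.

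Because genes of different length collect different numbers of fragments, levels were set against each other per kilobase of annotated exon. Summed over the 10 genes, this level was 32506 ± 2509 normalized counts per kilobase in hop heat, 3711 ± 312 in hop control, 33799 ± 3764 in wt heat and 3913 ± 280 in wt control libraries (SD, n = 3 each). The share of a gene in that sum does not depend on the scaling between libraries. SR45a made up 66.0 ± 1.04% of the sum in hop heat, 4.0 ± 0.30% in hop control, 65.4 ± 1.62% in wt heat and 3.67 ± 0.06% in wt control libraries. SR30 and SR45a together held 87.9 ± 0.57% in hop heat, 14.8 ± 0.90% in hop control, 86.8 ± 1.06% in wt heat and 14.8 ± 0.88% in wt control libraries. SR34 ranked highest in both control groups, with 27.7 ± 0.40% in hop and 25.2 ± 0.44% in wt, and was the third highest in both heat groups, with 4.49 ± 0.19% in hop and 4.55 ± 0.40% in wt. In both control groups RS31, RS40, RS41 and SR30 followed SR34, at 399 to 482 normalized counts per kilobase in hop and 435 to 564 in wt. In hop control libraries RS40, RS31 and RS41 lay within their spread, at 482 ± 60.7, 457 ± 40.4 and 436 ± 32.7 per kilobase. SR45a ranked ninth there, with 148 ± 2.06 per kilobase in hop control, a level within the spread of SR34b (152 ± 15.1). In wt control libraries SR45a, at 144 ± 8.76 per kilobase, was below SR34b at 168 ± 13.5. RS31A came last in every group, with 33.7 ± 6.19 per kilobase in hop heat, 18.6 ± 5.69 in hop control, 107 ± 20.8 in wt heat and 44.1 ± 11.9 in wt control libraries.

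**Figure D3:**
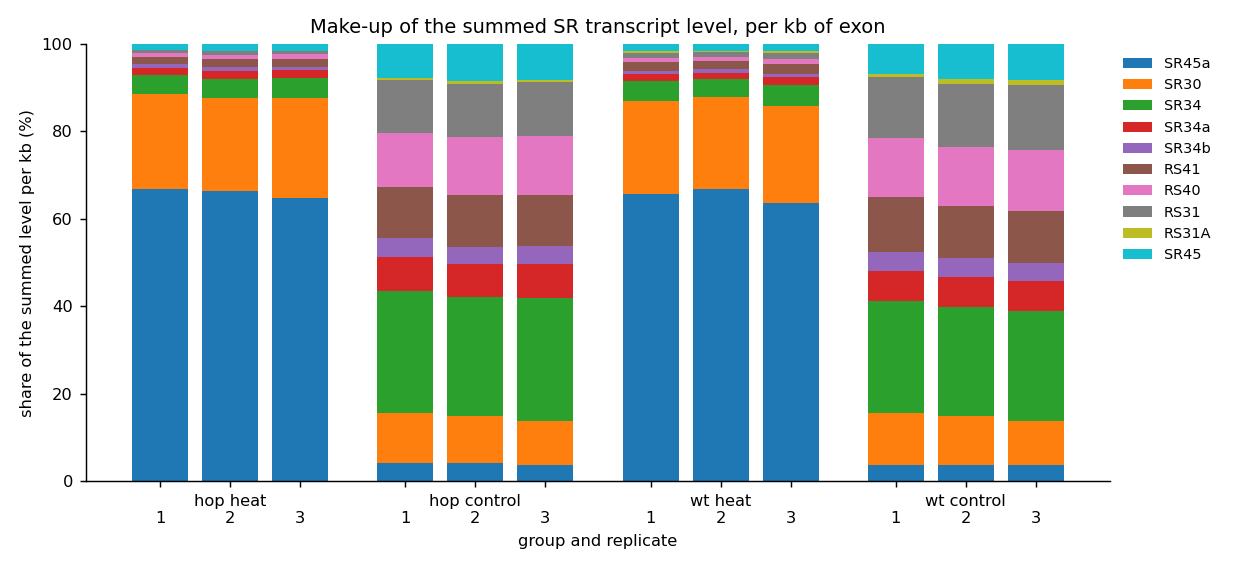
Share of each SR gene, in percent, of the summed normalized count per kilobase of exon over the 10 genes, as stacked bars for hop heat, hop control, wt heat and wt control. SR45a and SR30 together make up 87.9% and 86.8% of the heat bars of hop and wt and 14.8% of each control bar.

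Ratios between members within a library are free of the scaling too. For 6 pairs they were compared between 6 heat and 6 control libraries with an exact two-sided permutation test within genotype (400 arrangements, smallest possible p = 0.005). Among these pairs SR45a and SR45 were set together as SR-like proteins and not as paralogs. The ratio differed in all 6 pairs after adjustment over the pairs. Of all genes tested, 68.5% in hop and 69% in wt were called with heat under the authors' scaling. Ratios of other gene pairs were not compared, so nothing particular to these pairs is read from the count. SR45a over SR45 was 37.8 to 45.6 in hop heat, 0.411 to 0.496 in hop control, 34.9 to 38.9 in wt heat and 0.410 to 0.503 in wt control libraries, a log2 difference of 6.44 (exact permutation p = 0.005, adjusted 0.006). SR30 over SR34 was 5.38 to 5.50 in hop heat, 0.406 to 0.456 in hop control, 4.93 to 5.58 in wt heat and 0.453 to 0.514 in wt control libraries, a log2 difference of 3.53 (same exact p). So the order of each of these 2 pairs, in counts not corrected for gene length, turned with heat: the control libraries held fewer SR30 than SR34 and fewer SR45a than SR45 counts, and the heat libraries more.

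The ratios of the RS pairs rose with heat too. RS31A over RS31 was 0.158 to 0.252 in hop heat, 0.0426 to 0.0698 in hop control, 0.318 to 0.490 in wt heat and 0.0952 to 0.136 in wt control libraries, a log2 difference of 1.73 (exact permutation p = 0.005, adjusted 0.006). Like the RS31A heat response, this ratio uses the heat libraries in which RS31A was first noted. RS41 over RS40 was 1.57 to 1.95 in hop heat, 0.845 to 0.945 in hop control, 1.78 to 1.89 in wt heat and 0.849 to 0.935 in wt control libraries, a log2 difference of 1.03 (same exact p). RS41 thus lay below RS40 in every control library and above it in every heat library. The remaining differences were small. SR34a over SR34 was 0.451 to 0.530 in hop heat, 0.334 to 0.348 in hop control, 0.412 to 0.435 in wt heat and 0.329 to 0.342 in wt control libraries, a log2 difference of 0.42 (same exact p). For SR34b over SR34 the log2 difference was 0.17 (exact permutation p = 0.015, adjusted 0.015), and it was 0.30 within hop and 0.05 within wt.

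**Figure D4:**
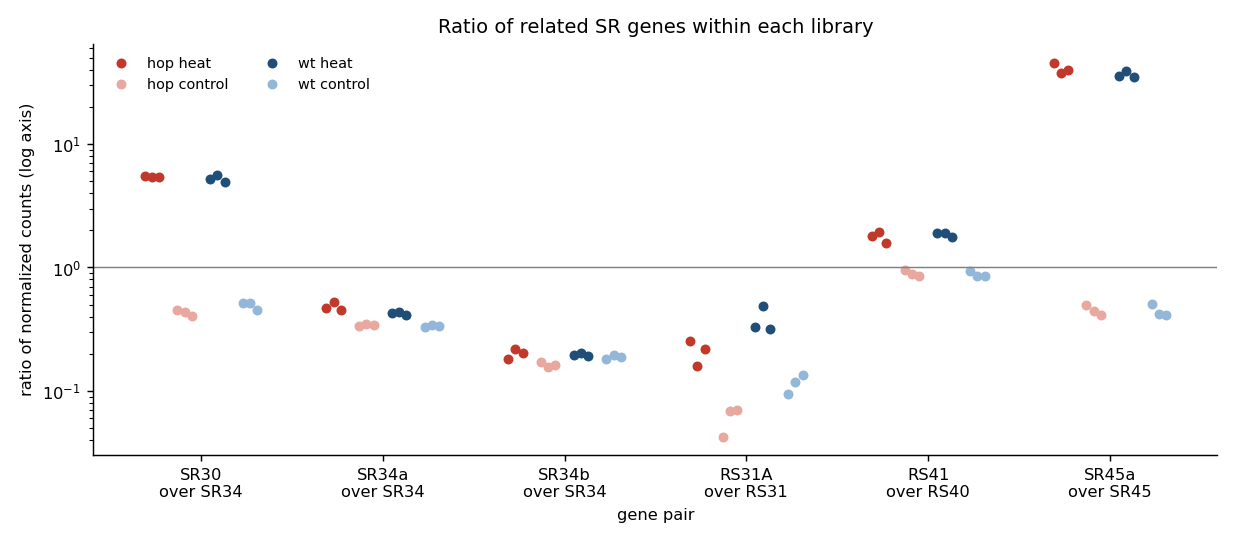
Ratio of normalized counts of the 6 pairs of members (log axis) in each library of hop heat, hop control, wt heat and wt control. For SR45a over SR45, SR30 over SR34 and RS41 over RS40 the ratio lies above 1 in the heat libraries of both genotypes and below 1 in the control libraries.

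Without heat, RS31A was the 1 member that differed between genotypes by the test. It averaged 33.5 ± 10.3 normalized counts in hop control and 79.6 ± 21.4 in wt control libraries (SD, n = 3 each), and the 3 hop libraries lay below the 3 wt libraries. The log2 difference was -1.24 (SE 0.25, 95% interval -1.78 to -0.69, limma adjusted p = 0.0341), and with a replicate block the adjusted p was 0.0216. Of all genes tested, 0.344% were called higher and 0.487% lower (0.831% in either direction) in hop control than in wt control libraries. The family was chosen because RS31A was lower in the same mutant under heat. The RS31A call at control is therefore not independent of that choice, and nothing is read from the count of 1. The call rests on low counts and on single libraries. The adjusted p was 0.136 without hop control replicate 1, 0.0733 without hop control replicate 2, 0.0536 without wt heat replicate 1, 0.0523 without wt heat replicate 3, 0.129 without wt control replicate 2 and 0.195 without wt control replicate 3. Over the alternatives run it lay between 8.54e-04 (DESeq2) and 0.195. AT2G46600 overlaps RS31A on the other strand. It averaged 978 ± 85.7 in hop control and 1317 ± 138 in wt control libraries (log2 difference -0.43, limma adjusted p = 0.311). With heat AT2G46600 averaged 2427 ± 575 in hop and 2182 ± 304 in wt libraries. The part of this overlap in the RS31A difference was not tested.

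None of the other 9 members passed at control, and 0 of the 10 were called higher with limma, edgeR or DESeq2, with 0 higher also at an unadjusted p under 0.05. At that unadjusted threshold 2 were lower by each tool, RS31A and RS31, and with limma 4.75% of all genes were lower and 5.57% higher. RS31 had a log2 difference of -0.30 (95% interval -0.53 to -0.07, adjusted p = 0.286), and its highest hop control library, at 605.1, was just above its lowest wt control library, at 604.2. The SR30 libraries did not overlap, those of hop control lying lower (log2 difference -0.12, 95% interval -0.32 to 0.07, adjusted p = 0.761). A separation in the lower direction was seen for 2 of the 10 members, RS31A and SR30, against 8.9% of all genes, and in the higher direction for 0 members, against 8.79%. Since RS31A chose the family, nothing is read from this count or from that at the unadjusted threshold. The SR45a difference was 0.04 (95% interval -0.18 to 0.27, adjusted p = 0.965). The remaining log2 differences ran from -0.15 for RS40 and SR34b to 0.09 for SR34a, with adjusted p from 0.709 to 0.994. Scaled by library size alone, the differences of SR34 (-0.027), SR45 (-0.086) and SR45a (-0.055) turned below 0. The intervals of the members other than RS31A and RS31 leave room for modest differences in either direction.

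Under heat the 10 genes are described without a test, since RS31A in this comparison chose the family. RS31A averaged 60.8 ± 11.2 normalized counts in hop heat and 193 ± 37.6 in wt heat libraries, a log2 difference of -1.65 (SE 0.25). RS31 averaged 294 ± 25.0 in hop heat and 516 ± 31.9 in wt heat libraries, a log2 difference of -0.81 (SE 0.11), or 57.0% of the wt level. For both genes every hop heat library lay below every wt heat library. The same held for RS41 (log2 difference -0.22) and RS40 (-0.15). The 4 genes so separated include RS31A itself, and 11.7% of all genes lay lower and 14.3% higher in hop heat without overlap, so nothing is read from this count. SR45 had a larger difference than RS40, -0.21, but its libraries overlapped. The SR subfamily had differences of -0.02 for SR30, -0.07 for SR34, 0.11 for SR34a and -0.03 for SR34b, and SR45a had -0.04. SR34a turned to -0.020 by library size alone. The median over the 10 genes was -0.11, against 0.04 for all genes, with 9 below 0. Scaled by library size it was -0.24, against -0.084 for all genes, with 10 below 0, so the median less that of all genes was -0.15 under both scalings.

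The heat response in hop less that in wt ran on the log2 scale from -0.51 for RS31 to 0.11 for SR34b, with -0.41 for RS31A and a median of -0.09 (0.02 for all genes). The difference of SR34a, 0.022, turned to -0.021 by library size alone, and that of RS40, near 0, to -0.036. These differences contain the comparison that chose the family and were not tested.

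**Figure D5:**
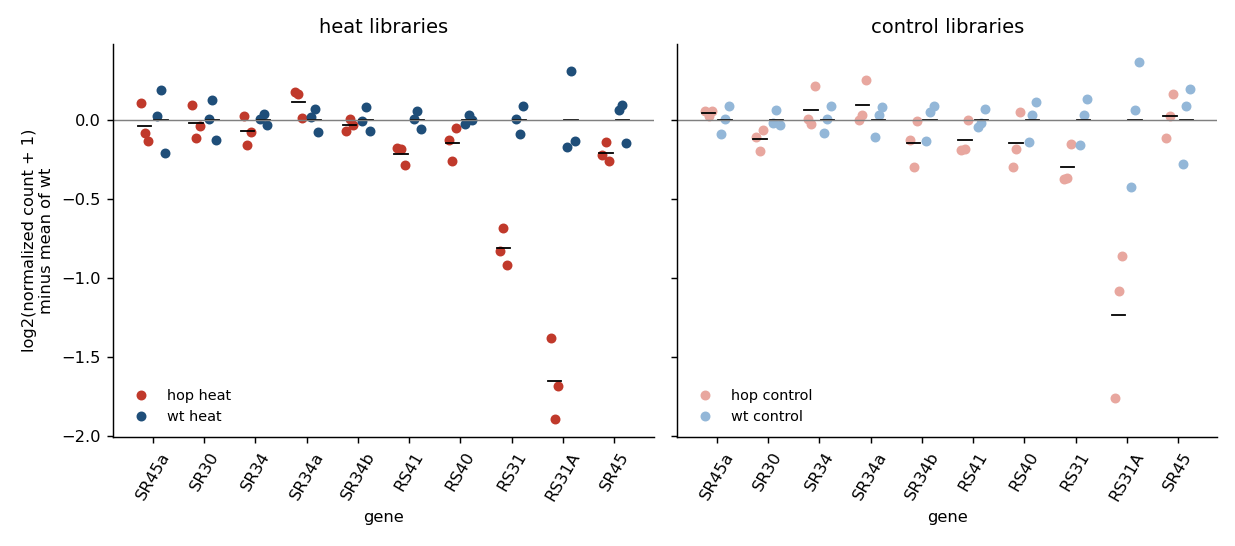
Log2 (normalized count + 1) of each SR gene in each hop and wt library, less the wt mean of the same condition, for heat libraries (left) and control libraries (right). The hop points of RS31A lie below the wt points in both panels, and those of RS31, RS40 and RS41 lie below the wt points without overlap in the heat panel.

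The other SR proteins of Arabidopsis, of the RSZ, RS2Z, SC and SCL subfamilies, were listed for comparison. Of these 10 genes 7 rose and 1 fell with heat in hop, and 7 rose and 0 fell in wt under the authors' scaling, where 33.3% of all genes rose and 35.2% fell in hop and 33.2% rose and 35.8% fell in wt. With library size alone 4 rose and 4 fell in each genotype, where 13.1% of all genes rose and 61.8% fell in hop and 13.3% rose and 60.9% fell in wt. In wt 1 was lower at an unadjusted p under 0.05 with limma, and edgeR called 1 lower and DESeq2 0. Their median log2 response was 0.90 in hop and 0.96 in wt. The largest rise was that of SCL33, an SC35-like protein, which averaged 4470 ± 163 normalized counts in hop heat, 613 ± 94.9 in hop control, 4456 ± 419 in wt heat and 581 ± 77.0 in wt control libraries, a log2 fold change of 2.88 in hop (adjusted p = 8.95e-12) and 2.94 in wt (adjusted p = 7.63e-12). At control 0 of the 10 were called between genotypes by limma, edgeR or DESeq2, and 2 were lower in hop at an unadjusted p under 0.05. With limma 0.831% of all genes were called there, and 4.75% were lower and 5.57% higher at the unadjusted threshold.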

How the data were processed

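Sequencing libraries came from 12 seedling samples, and the labels name a kit for mRNA that keeps the strand. The submitters' processing notes list TopHat2 (2.1.0), HTSeq and DESeq2 (1.1.14), without saying which step each did. The authors deposited 1 table of normalized counts per gene and library (a signal, counts divided by size factors). Its genome build and strand setting are not given in the sources used here. Each value was a whole number of fragments times a per-library step (100% within 0.01), which gave the depth and the fragments for the count tests. Testing was limited to the 23827 genes that reached a value of 1 in 3 or more libraries, on log2(value + 1), with limma 3.58.1 (trend, robust; R 4.3.3) fitted to the 4 group means over all 12 libraries. Log2 fold changes are on that scale, which understates changes of low genes. Benjamini-Hochberg adjustment ran over all genes tested, with a threshold of 0.05. edgeR 4.0.16 and DESeq2 1.42.0 on the fragments, other pseudocounts and filters, a replicate block and leaving out each library were alternatives. The limma fit was checked on simulated data. No pair of libraries was identical.

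The members and gene lists were chosen with earlier results of these data known. All 10 members are named, with HOP1 to HOP3 as a check and, of each other list, the called gene with the largest rise and with the largest fall in wt; 1 gene so chosen is not reported here. Same-numbered hop and wt control libraries deviated together (correlations 0.17 to 0.31), so numbers were taken to pair them there, from the data and not the labels; heat and control libraries of a number did not (-0.14 to 0.14). Gene models and sequences came from RefSeq (TAIR10.1), matched by locus number for 32548 of 32833 genes (99.1%), with no coordinates taken from the deposited table.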

Additional observations from a re-analysis of the deposited data

How the results depend on the processing

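Scaling by library size alone was the setting that moved most. Under it 2 members were called higher and 4 lower with heat in hop, and 2 higher and 3 lower in wt; of the 37 genes in the other lists 6 were higher and 21 lower in hop and 7 higher and 19 lower in wt, against 19 higher and 8 lower in hop and 23 higher and 6 lower in wt under the authors' scaling; and the members' median between genotypes under heat was -0.24. Log2 fold changes that turned under it were, in hop, SR34 -0.43, SR34b -0.13, RS31A -0.086, RS41 -0.56 and SR45 -0.27, in wt SR34 -0.25, SR34b -0.21, RS41 -0.42 and SR45 -0.013, and between genotypes at control SR34 -0.027, SR45 -0.086 and SR45a -0.055. Untested values also turned, SR34a between genotypes under heat to -0.020 and the response differences of SR34a to -0.021 and of RS40 to -0.036. The construction of the setting, which drops the authors' size factors, shifts all genes together. Leaving out 1 library in turn left the heat calls of the members at 8 higher and 2 lower in each genotype, and the count of members lower at control at 0 to 1, with RS31A lost in 6 of 12 cases. The 12 cases include heat libraries, which enter the RS31A control comparison only through the spread. Among control libraries the call was lost without hop replicate 1 or 2 and without wt replicate 2 or 3. The control differences of SR34 and SR45 ran from -0.012 to 0.11 and from -0.12 to 0.12 on the log2 scale. With a replicate block the RS31A difference at control had a limma adjusted p of 0.0216, and the block changed no other call of a member. The 6 ratios between members kept their calls when same-numbered heat and control libraries were swapped (exact permutation p = 0.0312, the smallest this allows). Both settings treat heat and control libraries of a number as belonging together, although these did not deviate together. Of 1687 alternative values, 1632 were classed as unchanged. For estimates this meant the same direction and side of the threshold, or a move smaller than the replicate spread. Counts of calls were classed as unchanged if they stayed within a set ratio of the main count. Leaving out a library outside a comparison cannot move its log2 difference. A gene that stayed uncalled in the same direction was also classed as unchanged. Part of this agreement was thus fixed in advance, and no support is read from it. The low fragment numbers of RS31A limit its precision.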

Other observations

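Other parts of the splicing machinery, from lists drawn up with earlier results known, were counted in the same fit. Of all genes tested 33.3% rose and 35.2% fell in hop, and 33.2% rose and 35.8% fell in wt, and by library size alone 13.1% rose and 61.8% fell in hop, and 13.3% rose and 60.9% fell in wt. Several counts below lie near these shares, and nothing particular to a list is read from them. Of 7 U1 and U2AF genes 3 rose and 0 fell with heat in hop, and 5 rose and 0 fell in wt, whereas by library size alone 1 rose and 5 fell in hop and 1 rose and 4 fell in wt. The largest rise among them was that of AT4G03120, a U1 C protein, with a log2 fold change of 1.5 in hop (limma, adjusted p = 1.06e-09) and 1.53 in wt (adjusted p = 8.38e-10). Of 8 other splicing regulators 4 rose and 2 fell in hop, and 5 rose and 2 fell in wt, against 1 that rose and 4 that fell in each genotype by library size alone. CDKG1, a cyclin-dependent kinase with a part in temperature-dependent splicing, averaged 6954 ± 737 normalized counts in hop heat, 1428 ± 139 in hop control, 6542 ± 342 in wt heat and 1416 ± 80.7 in wt control libraries (SD, n = 3 each), and rose by 2.28 in hop (adjusted p = 1.83e-11) and 2.21 in wt (adjusted p = 2.96e-11) on the log2 scale. GRP7, a glycine-rich RNA-binding protein of the circadian system, fell by 1.17 in hop (adjusted p = 2.20e-04) and by 0.81 in wt (adjusted p = 0.00337).

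Of 8 SR protein kinase loci 4 rose and 3 fell with heat in hop, and 4 rose and 2 fell in wt, against 0 up and 5 down in hop and 1 up and 4 down in wt by library size alone. The locus AT5G22840, which the deposited table names only as a protein kinase superfamily member, averaged 213 ± 32.2 normalized counts in hop heat, 113 ± 8.73 in hop control, 326 ± 41.6 in wt heat and 105 ± 17.8 in wt control libraries. AT5G22840 had a log2 fold change of 0.90 in hop (adjusted p = 9.98e-05) and 1.64 in wt (adjusted p = 1.71e-07), and by library size alone it was called in wt and not in hop. AT2G17530 fell by 0.82 in hop (adjusted p = 9.25e-05) and by 0.94 in wt (adjusted p = 2.24e-05). Among 4 nonsense-mediated decay factors, which degrade transcripts with early stop codons, 1 rose and 2 fell in hop, and 2 rose and 2 fell in wt, against 0 up and 3 down in each genotype by library size alone. UPF1, the helicase of that pathway, fell by 1.06 in hop (adjusted p = 6.80e-07) and by 0.90 in wt (adjusted p = 4.37e-06). Between genotypes at control 0 of the 37 genes of all lists, the other SR proteins included, were called with limma, edgeR or DESeq2, and at an unadjusted p under 0.05 there were 1 higher and 2 lower with each. With limma 0.831% of all genes were called there, and 5.57% were higher and 4.75% lower at the unadjusted threshold.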
